A study of Homo sapiens with 5 samples.

Results

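Of 181723 ATAC-seq hotspots called in MCF10A cells, 4909 had their midpoint in an exon of a protein-coding transcript and more than 1000 bp from every protein-coding transcription start site (TSS). They were 3.12% of the 157613 hotspots left once chromosome 20, chromosome 5 beyond 120 Mb and the sex chromosomes were set aside. The midpoint lay in coding sequence for 2782 of them (56.7%), in a 3′ untranslated region (3′ UTR) for 1997 (40.7%) and in a 5′ UTR for 130 (2.65%). Where transcripts of a gene differed, coding sequence was given precedence over 3′ UTR, and 3′ UTR over 5′ UTR. For comparison, 57691 hotspots away from promoters lay in introns, 78352 lay outside protein-coding genes (intergenic) and 16661 lay within 1000 bp of a protein-coding TSS (promoter). No measured value entered this choice, which used position alone.

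MCF10A is an immortalized, non-tumorigenic line of human mammary epithelial cells. They were grown with 5% horse serum, EGF (20 ng/ml), hydrocortisone (0.5 µg/ml), cholera toxin (100 ng/ml) and insulin (10 µg/ml). ATAC-seq uses the Tn5 transposase to insert sequencing adapters into open chromatin, and 5 replicate libraries gave read pairs of 75 bases per end. The authors pooled the 5 replicates into a single list, so that no spread between replicates can be given, the depth is unknown and no value was tested across samples. Each hotspot carries a score from the Hotspot program. Its scale is not given in the sources used here, and scores were therefore compared only within the list. Intervals below are 95% intervals that cover counting error only. Hotspots at promoters were found at 10 of 12 basal mammary epithelial marker genes, but not at KRT14 and TP63. They were found at 1 of 6 hepatocyte genes (score 4.86), at 0 of 4 leukocyte genes and at 2 of 4 neuronal genes (highest score 9.75). Of all 17757 protein-coding genes on the chromosomes kept, 75.15% had one, so the count of basal genes lay close to that share.

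Most regulatory DNA lies in promoters, introns and the space between genes, but transcription factors also bind within exons, where the same bases serve the reading frame or the untranslated message. AP-1, a dimer of FOS and JUN proteins, is induced by EGF signalling and opens chromatin in mammary epithelial cells. CTCF is a zinc finger protein that anchors chromatin loops and insulates neighbouring genes. Both recognise short sequences that can occur in exons as well as elsewhere.

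The following 30-base stretches of the hg38 reference show AP-1 sites in the central 120 bp of 6 high-scoring exonic hotspots that held one, chosen from the 5 highest of each exon kind. Each is written 5′ to 3′ on the strand of the gene, with the AP-1 site in capitals (TGACTCA, which reads TGAGTCA on the other strand).
ZNF589, coding exon, chr3:48268540-48268569, plus strand: aggctttatagtTGAGTCAgtcctccgcaa
DPYD, coding exon, chr1:97193103-97193132, minus strand: tccagctactgTGAGTCAccagaaagggaa
MYH15, coding exon, chr3:108421126-108421155, minus strand: gctagataaggTGACTCAgttggcaaatga
CMTM4, 3′ UTR, chr16:66618750-66618779, minus strand: ggacagcttcgTGACTCAgttgaaaacatt
PARP9, 3′ UTR, chr3:122534029-122534058, minus strand: caattcagacaTGACTCAtaatgtgacctg
WDR35, 3′ UTR, chr2:19911987-19912016, minus strand: cttgagccagaTGACTCAatcagatgaaat

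The hotspot in ZNF589, a zinc finger gene, had a score of 21.4 and lay in exon 4 of 4. The hotspot in DPYD, which encodes the enzyme that begins pyrimidine breakdown, scored 17.3 in exon 20 of 23 and lay 470.4 kb from the nearest protein-coding TSS. The hotspot in MYH15, a myosin heavy chain gene, scored 13.9 in exon 28 of 41. In the 3′ UTRs, the score was 25.4 in CMTM4, which encodes a membrane protein, 24.8 in PARP9, a gene of the interferon response, and 23.3 in WDR35, a gene of transport within cilia. Of these 6 hotspots, 5 scored above the median of promoter hotspots, 14.3, and the one in MYH15 scored below it. They were picked for high scores. All hotspots with a central AP-1 site had a median score of 5.71 in coding exons and 6.37 in 3′ UTRs.

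Sites of CTCF (a core of 12 bases, in capitals) are shown in the same way. They were more frequent in 3′ UTR hotspots than in intronic ones, but not in coding exon hotspots.
MYO1H, coding exon, chr12:109432934-109432963, plus strand: cacgggcctCCAGCAGAGGGCgtggaacgg
EPG5, coding exon, chr18:45910589-45910618, minus strand: ctccgtgttCCAGCAGAGGGCagtgaaggg
DHH, 3′ UTR, chr12:49088420-49088449, minus strand: ctatacaccGCCCTCTGGTGGccttcaaga
PNKD, 3′ UTR, chr2:218272832-218272861, plus strand: ctctgaggtCCACCAGAGGGCgcatgaagc
FAM163A, 3′ UTR, chr1:179814931-179814960, plus strand: ggaaccagcGCCCCCTGCTGGagaagtttt

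The hotspot in DHH (desert hedgehog) had a score of 14.9 and the one in PNKD scored 14.6, while those in MYO1H, EPG5 and FAM163A scored 10.1, 9.37 and 10.0. DHH, MYO1H and FAM163A had no hotspot at their promoter.

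Exonic hotspots were weak. The median score was 5.27 (5.24 to 5.32) in coding exons and 5.40 (5.32 to 5.48) in 3′ UTRs, against 5.61 in introns, 5.76 (5.72 to 5.79) between genes and 14.3 (13.9 to 14.6) at promoters. The 130 hotspots in 5′ UTRs had a median of 5.99 (5.61 to 6.36). Scores in the middle of each distribution lay close together, from 4.76 to 6.39 between the quartiles in coding exons and from 4.80 to 6.74 in 3′ UTRs. The upper end differed more. The score of the 90th percentile was 9.75 in coding exons and 10.7 in 3′ UTRs, against 12 in introns and 36.1 at promoters. Of all 157613 hotspots, 10.4% were among the 10% highest scores of the whole list, above 16.1. This held for 104 coding exon hotspots (3.74%, 3.10 to 4.51) and 75 3′ UTR hotspots (3.76%, 3.01 to 4.68), against 5.13% in introns, 7.21% between genes and 45.4% at promoters. Both exonic classes were thus below every class outside exons, and the intervals of the 2 exonic classes overlapped almost fully.

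**Figure D1:**
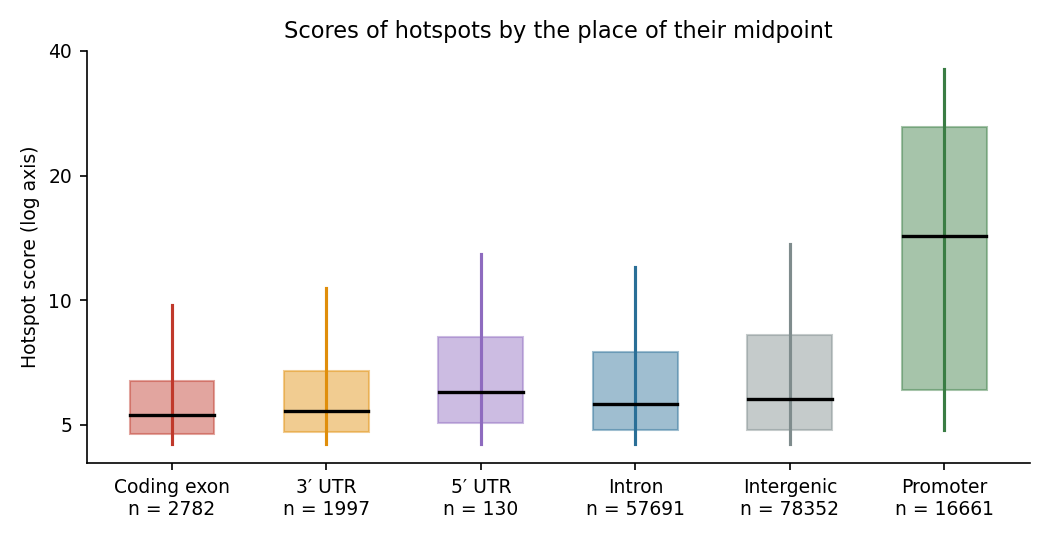
Score of the hotspots (log axis) by the place of their midpoint. The black line is the median, the box spans the quartiles and the vertical line runs between the 10th and the 90th percentile of single hotspots. Coding exon and 3′ UTR hotspots had medians of 5.27 and 5.40, below introns (5.61), and promoter hotspots stood apart at 14.3.

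The distance limit of 1000 bp cut through a gradual decline. The 310 exonic hotspots from 1000 to 1500 bp had a median score of 5.51 (quartiles 4.74 and 6.71), and the 448 just outside the rule, from 500 to 1000 bp, had one of 5.73 (quartiles 4.86 and 8.51). Because the rule uses the midpoint, 97 coding exon hotspots (3.49%), 24 3′ UTR hotspots (1.20%) and 16 5′ UTR hotspots (12.3%) still reached into the 1000 bp beside a TSS. The remaining 2685 coding exon hotspots had a median score of 5.26.

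Exonic hotspots were slightly wider than the other hotspots away from promoters and richer in G and C. The median width was 310 bp in coding exons and 305 bp in 3′ UTRs, against 273 bp in introns and 670 bp at promoters. GC content had a median of 59.7% in coding exons and 55.4% in 3′ UTRs, against 52.5% in introns and 63.1% at promoters. In the central 120 bp, GC content was higher than in the DNA 2000 bp to either side. The median difference was 9.17 percentage points in coding exons and 6.67 in 3′ UTRs, against 7.50 in introns. A ratio of observed to expected CpG of at least 0.6 was found in 15.4% of coding exon hotspots and 7.31% of 3′ UTR hotspots, against 8.49% in introns, 64.9% at promoters and 15.3% of all hotspots.

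Coding hotspots often ran past their exon. In 1351 of 2782 coding exon hotspots (48.6%) the hotspot was wider than the exon that held its midpoint, and 35.6% lay wholly in exons. In 3′ UTRs, where the exon had a median length of 3218 bp, 89.9% lay wholly in exons. The midpoint lay in an internal exon for 69.6% of coding exon hotspots, in the last exon for 27.2% and in the first for 1.58%. For 98.2% of 3′ UTR hotspots it lay in the last exon, at a median of 1054 bases from the stop codon. Annotation was not unique for all. Of the coding exon hotspots, 22.7% also lay in an intron or UTR of another protein-coding transcript, and 26.7% of the 3′ UTR hotspots lay in an intron or 5′ UTR of one.

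Per base, coding exons held more hotspots than introns. There were 106.0 hotspot midpoints per Mb of coding sequence away from TSSs (102.1 to 110.0, over 26.3 Mb) and 57.3 per Mb of 3′ UTR (54.8 to 59.8, over 34.9 Mb), against 55.7 per Mb of intron (55.2 to 56.2) and 53.4 per Mb between genes. The ratio to introns was 1.90 (1.83 to 1.98) for coding exons and 1.03 (0.983 to 1.08) for 3′ UTRs. The excess of coding exons held at every distance from a TSS. At 1 to 2 kb there were 160.7 per Mb of coding sequence and 96.2 per Mb of 3′ UTR, against 88.0 per Mb of intron. Beyond 50 kb there were 77.4 per Mb of coding sequence and 38.4 per Mb of 3′ UTR, against 43.6 per Mb of intron.

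With local GC content matched, the ratio of coding exons to introns over all classes fell below 1. Each base was placed in 1 of 8 classes by the GC content of the 300 bp around it, and 34.2% of coding sequence lay at 55% GC or more, against 6.44% of intron. The interval of the ratio of coding exons to introns lay above 1 in none of the 8 classes. It included 1 at 40 to 45%, 45 to 50% and 50 to 55% GC, and also below 35% GC, where the ratio was 2.31 (0.949 to 5.61) from 5 coding exon hotspots. At 45 to 50% GC there were 66.2 hotspots per Mb in coding exons, against 70.4 in introns (ratio 0.942, 0.823 to 1.08). At 55 to 60% GC there were 195.9, against 269.4 (ratio 0.727, 0.672 to 0.787). At 65% GC or more there were 234.1, against 401.7 (ratio 0.583, 0.533 to 0.638). With the classes weighted as in introns, the density was 46.2 per Mb in coding exons and 44.9 per Mb in 3′ UTRs, against 55.7 per Mb in introns. The ratio became 0.830 (0.787 to 0.875) for coding exons and 0.806 (0.769 to 0.845) for 3′ UTRs. Density rose with local GC up to 65% in every kind of sequence, and the part of base composition in the calls was not tested.

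**Figure D2:**
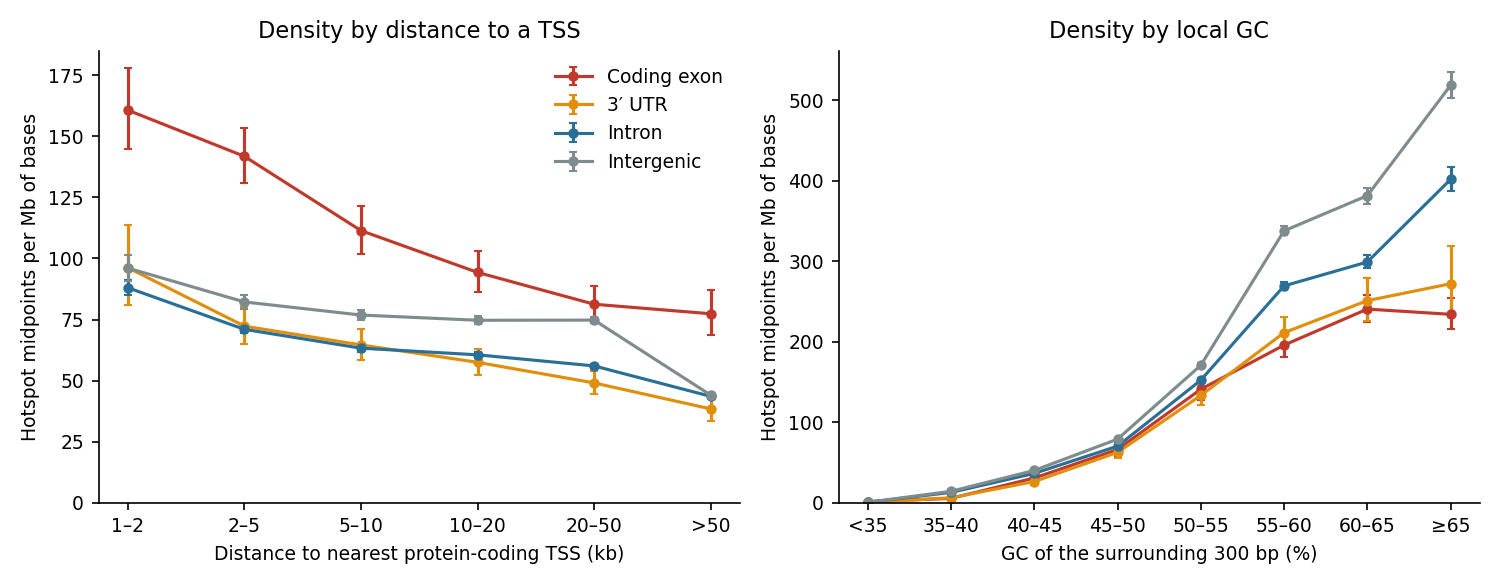
Hotspot midpoints per Mb of bases in coding exons, 3′ UTRs, introns and between genes, by distance to the nearest protein-coding TSS in kb (left) and by GC content of the surrounding 300 bp (right). Bars are 95% Poisson intervals. Coding exons lay above introns at every distance (77.4 against 43.6 per Mb beyond 50 kb), but below them in the GC-rich classes (234.1 against 401.7 per Mb at 65% GC or more).

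Density also varied along the transcript. Canonical coding sequences and 3′ UTRs were divided into 10 equal parts. The density was 78.2 per Mb (64.9 to 93.4) in part 1 of the coding sequence and 125.1 (112.3 to 138.9) in part 8. Along 3′ UTRs it stayed between 55.6 and 66.2 per Mb over parts 1 to 8 and was 28.5 (22.8 to 35.2) in part 10, next to the end of the transcript. Long coding exons held more hotspots per base. Exons of up to 150 bp had 72.0 per Mb (66.6 to 77.9), and those over 1200 bp had 139.1 (129.7 to 148.9). By chromosome, coding exon density was highest on gene-rich chromosome 19 (160.8 per Mb, 143.0 to 180.2) and lowest on the part of chromosome 5 that was kept (64, 46.5 to 86.0). In 3′ UTRs it was highest on chromosome 22 (107.2) and lowest on chromosome 4 (28.3).

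**Figure D3:**
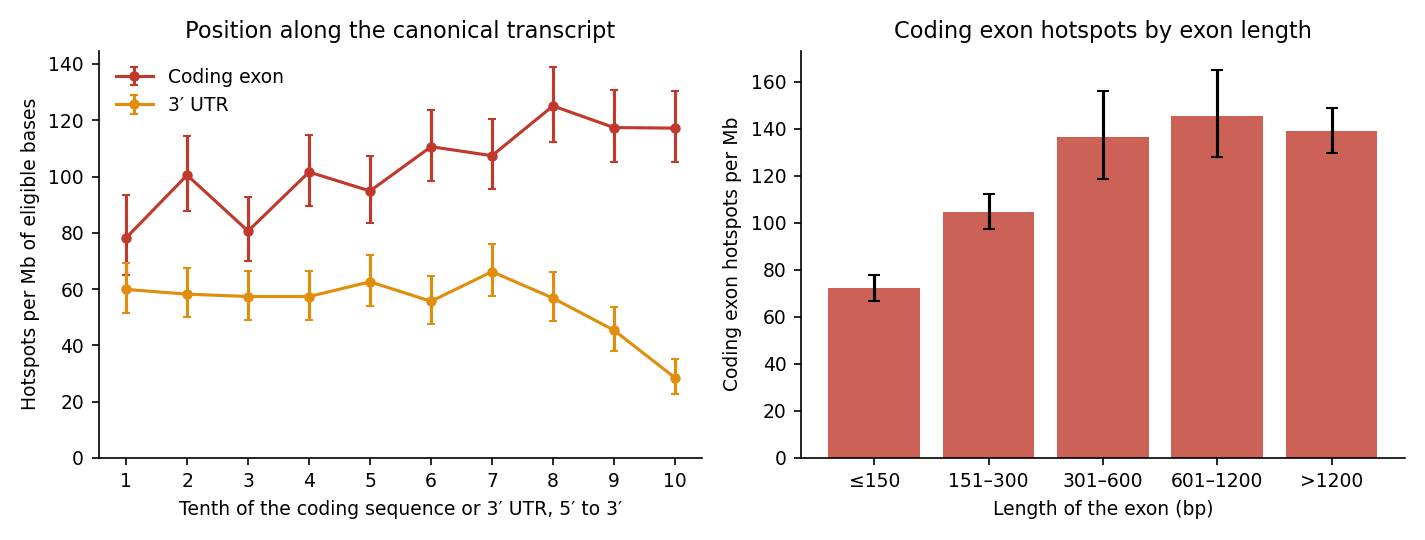
Exonic hotspots per Mb of eligible bases along the coding sequence and the 3′ UTR of canonical transcripts, in 10 equal parts from 5′ to 3′ (left), and coding exon hotspots per Mb by exon length in bp (right). Bars are 95% Poisson intervals. Part 10 of the 3′ UTR had the lowest density (28.5 per Mb), and coding exons of up to 150 bp had 72.0 per Mb, against 139.1 in those over 1200 bp.

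AP-1 sites were scarcer in coding exon hotspots than in the other classes away from promoters. The central 120 bp held one in 97 coding exon hotspots (3.49%, 2.87 to 4.24) and 124 3′ UTR hotspots (6.21%, 5.23 to 7.35), against 6.70% in introns, 6.38% between genes, 2.47% at promoters and 6.03% of all hotspots. The share of coding exons was 3.21 percentage points below that of introns, while the interval of the 3′ UTR share included that of introns. Coding exon hotspots with a site had a median GC content of 50.8%, against 59.8% in those without one. At 45 to 50% GC the shares were 13.1% in coding exons and 13.5% in 3′ UTRs, against 9.74% in introns. At 60 to 65% GC they were 1.23% and 2.50%, against 3.27%. The interval of the difference between coding exons and introns lay below 0 at 55 to 60% and at 60 to 65% GC and included 0 in the other 4 classes. In the central 300 bp, a longer window, the AP-1 shares were 7.73% in coding exons and 11.6% in 3′ UTRs. Sites became more frequent with score in both kinds of exon. Among the 20% lowest scores of all hotspots 2.10% of coding exon hotspots and 2.27% of 3′ UTR hotspots held one, against 3.73% of intronic hotspots, and among the 20% highest the shares were 8.84% and 13.6%, against 10.9%.

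Exon bases inside hotspots held more AP-1 sites than exon bases outside them. There were 187.0 sites per Mb of coding sequence in hotspots and 114.5 outside (ratio 1.63, 1.41 to 1.89), and 412.6 per Mb of 3′ UTR in hotspots and 140.8 outside (ratio 2.93, 2.61 to 3.30). In introns it was 3.37 (3.30 to 3.44). Of the 97 coding exon hotspots with a central site, 70 (72.2%) had the whole site within coding sequence, and 121 of 124 did so within 3′ UTR.

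The reading frame limits where an AP-1 site can lie, because TGA is a stop codon. Canonical coding sequence away from TSSs held 2929 sites, none of which began at the first base of a codon. Among the 177 within hotspots, 76 (42.9%) began at the second base and 101 (57.1%) at the third, as in DPYD and ZNF589 above. Outside hotspots the shares were 41.2% and 58.8%. A hotspot covered 6.28% (5.04 to 7.78) of the sites that began at the second base and 5.88% (4.86 to 7.09) of those at the third. The 2 frames did not differ beyond counting error.

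CTCF sites showed the other order. They were found in 36 3′ UTR hotspots (1.80%, 1.30 to 2.49) and 18 coding exon hotspots (0.647%, 0.410 to 1.02), against 0.740% in introns, 0.846% between genes, 0.396% at promoters and 0.768% of all hotspots. The 3′ UTR share was 1.06 percentage points above that of introns. It was higher at every GC class below 65%, and the interval of the difference lay above 0 in 3 of them, below 45%, at 55 to 60% and at 60 to 65%. All 36 sites lay wholly in 3′ UTR. Inside hotspots there were 88.6 CTCF sites per Mb of 3′ UTR and 5.10 outside (ratio 17.4, 13.1 to 23.2), and 40.8 per Mb of coding sequence and 6.02 outside (ratio 6.77, 4.80 to 9.56). In introns the ratio was 14.2 (13.1 to 15.3). In the central 300 bp the CTCF shares were 2.85% in 3′ UTRs and 1.55% in coding exons.

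**Figure D4:**
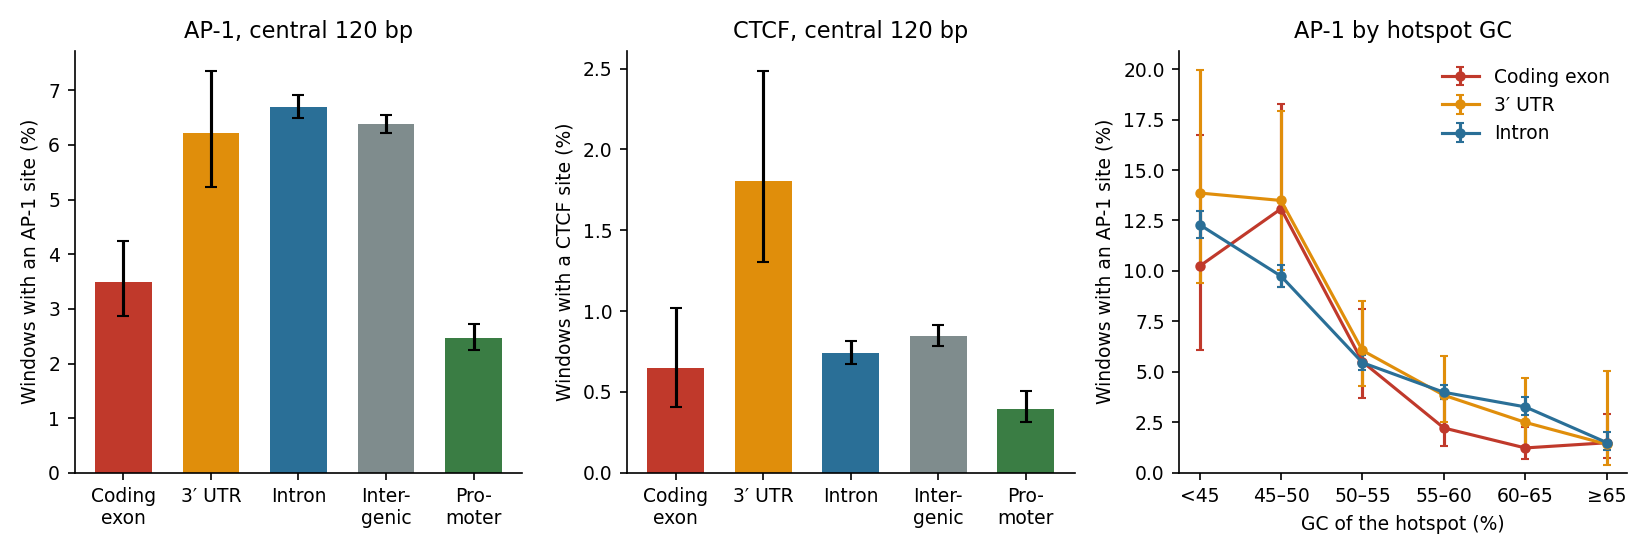
Share of central 120 bp windows with an AP-1 site (left) or a CTCF site (middle) by class, and share with an AP-1 site by GC content of the hotspot (right). Bars are 95% Wilson intervals. AP-1 sites were in 3.49% of coding exon windows and 6.21% of 3′ UTR windows, against 6.70% in introns, and CTCF sites in 1.80% of 3′ UTR windows, against 0.740% in introns.

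Some sites were more frequent in coding exon hotspots than in intronic ones. The TFAP2 site GCCNNNGGC, bound by AP-2 factors of epithelial cells, was in 8.91% of coding exon and 8.36% of 3′ UTR windows, against 4.77% in introns and 5.93% of all hotspots. The E-box CACGTG, bound by MYC, USF and related factors, was in 3.20% and 3.10%, against 2.00% in introns and 2.05% of all hotspots. The SP/KLF site GGGCGGGG, typical of promoters, was in 1.76% and 1.95%, against 1.18% in introns, 12% at promoters and 2.31% of all hotspots. The YY1 site AAGATGGC was in 0.935% of coding exon windows and 0.250% of 3′ UTR windows, against 0.420% in introns and 0.528% of all hotspots. Coding sequence outside hotspots was itself richer than introns in all 4 sites. It held 480.1 TFAP2 and 166.3 E-box sites per Mb, against 152.8 and 98 per Mb of intron outside hotspots. It held 47.3 SP/KLF and 66.6 YY1 sites per Mb, against 24.2 and 42.2 per Mb of intron outside hotspots. The ratio of site density inside hotspots to that outside was 1.97 for TFAP2, 1.59 for E-box and 2.77 for SP/KLF sites in coding sequence. In introns these ratios were 3.29, 2.00 and 8.96. For YY1, coding sequence in hotspots held 54.7 per Mb (ratio to coding sequence outside 0.822, 0.628 to 1.08). The TEAD site ACATTCC, bound by partners of YAP, was in 1.65% of coding exon and 2.20% of 3′ UTR windows. It was in 1.83% of intronic windows and 1.82% of all hotspots, and these shares did not differ beyond counting error. Coding sequence held 118.4 TEAD sites per Mb in hotspots and 150.7 outside (ratio 0.785, 0.654 to 0.942). The ratio was 1.07 (0.897 to 1.28) in 3′ UTRs and 1.09 (1.05 to 1.13) in introns. The glucocorticoid receptor site, of interest because of the hydrocortisone in the medium, was in 8 coding exon and 0 3′ UTR windows, against 149 intronic ones (0.258%). A count of 0 in 1997 windows allows a share of up to 0.150% (3 counts of the total), and the upper Wilson bound was 0.192%. All sites were searched on both strands, and a match is a description of the letters only.

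Starts of non-coding transcripts lay close to some exonic hotspots. Within 1000 bp of a TSS of a transcript that is not protein-coding lay 24.4% of coding exon hotspots (22.8 to 26.0) and 11.4% of 3′ UTR hotspots (10.1 to 12.9), against 8.31% of intronic hotspots and 14.5% of all hotspots. Most of these starts belonged to other transcripts of protein-coding genes, such as retained introns, which accounted for 21.0% of coding exon hotspots. The share of coding, 3′ UTR and intron bases near such starts was not tested. The shares of hotspots therefore do not separate the hotspots from the annotation around them. At 1000 bp from every TSS, 2104 coding exon hotspots remained. Their density over introns was then 1.88, against 1.90 in the main setting. For 3′ UTRs it was 1.02, against 1.03. A long non-coding RNA started within 1000 bp of 3.77% of coding exon and 4.4% of 3′ UTR hotspots, against 1.59% of intronic ones, 4.80% of those between genes and 4.93% of all hotspots. The median score of hotspots near a non-coding start was 5.28 (5.19 to 5.42) in coding exons, against 5.27 (5.24 to 5.33) without such a start, and 5.55 (5.28 to 6.03) in 3′ UTRs, against 5.38 (5.31 to 5.48) without one. The intervals overlapped in both.

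The hotspots lay in 3771 genes. A coding exon hotspot was found in 2327 of 17757 protein-coding genes (13.1%) and a 3′ UTR hotspot in 1716 (9.66%), with 362 genes in both groups. Most genes had 1 exonic hotspot (2865), 700 had 2 and 206 had 3 or more. In 62 cases the exon belonged to more than 1 gene.

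MUC16, the large mucin known as CA125, had the most, with 9 coding exon hotspots of scores 4.44 to 8.03. MUC12, another mucin, had 8 with scores from 10.7 to 166.6, all in exon 2 of 12, an exon of 14889 bp. FLG (filaggrin of the skin barrier) had 6, from 6.08 to 14.9, also in a single exon of repeated sequence. EVPL (envoplakin of the cornified envelope), MAP1A (a microtubule protein), SYNE1 (a nuclear envelope scaffold), FCGBP and MUC5B had 5 each. The 5 hotspots of EVPL had scores from 4.60 to 5.28, whereas the promoter of EVPL scored 25.5. In 3′ UTRs, ATP6V0A1, a subunit of the vacuolar proton pump, had 5, from 4.44 to 9.68. The 10 genes with 4 included CALCOCO1, FAM83F, B9D1, STN1 and C15orf40, as well as RAB43 and ISY1-RAB43, which share the exon.

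The highest scores often lay in duplicated sequence. In coding exons the list was headed by FCGBP (an Fc-binding protein of mucus) with 167.7 at chr19:39879511-39880148 in exon 19 of 28, and by MUC12 with 166.6. HRNR (hornerin, a repeat protein of the skin) followed with 93.7 over 4772 bp, then SPDYE5 with 75.5, AGAP4 with 54.2, ROPN1B with 47.3 and NBPF1 with 45. In 3′ UTRs POMZP3 had 66.6, POLK (DNA polymerase kappa) 52.1, NUTM2D 51.5, TF (transferrin) 47.2 and AKT1S1 (a subunit of the mTORC1 kinase) 38.4. Exact copies of the central 64 bases were counted in the genome. Copies were found for 8 of the 10 highest coding exon hotspots and 5 of the 10 highest 3′ UTR hotspots, with 37 for POLK, 9 for TF and 8 for SPDYE5. Among all, 171 coding exon (6.15%) and 168 3′ UTR hotspots (8.41%) had a repeated centre, against 17.9% in introns. Their median score was 9.29 (8.0 to 10.0) in coding exons and 6.95 in 3′ UTRs, against 5.24 and 5.34 where the centre occurred once. How reads that map to several places were placed was not tested. Among the highest 3′ UTR hotspots with a unique centre were AKT1S1, SEC14L2 (34.3), SDR42E2 (34.3), ST3GAL2, a sialyltransferase (34.1), and UQCRC1 of respiratory complex III (32). COMTD1 (40.1), TF and SEC14L2 reached into the 1000 bp beside a TSS. Exons held 14.1% of the UQCRC1 hotspot and 35.7% of the COMTD1 hotspot, which were placed by their midpoints. For AKT1S1, SEC14L2, SDR42E2 and ST3GAL2 the share was 74.0% to 100%.

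Genes with an exonic hotspot often had an open promoter. A promoter hotspot that was not one of the 4909 was found for 80.4% of genes with a coding exon or 3′ UTR hotspot (79.1 to 81.7), against 73.8% of genes with neither (73.0 to 74.5). Genes with more exon bases had both more often. Above 4000 exon bases 32.1% of genes had an exonic hotspot, and the share with a promoter hotspot was 85.0% with and 85.0% without one. From 1000 to 2000 exon bases it was 74.0% with and 68.5% without (difference 1.30 to 9.44 points). Where the gene had a promoter hotspot, exonic hotspots were mostly weaker than the highest one at its promoters. The median ratio of the 2 scores was 0.346 in coding exons and 0.298 in 3′ UTRs. The exonic hotspot was the higher one in 267 of 2199 coding exon cases (12.1%) and 188 of 1699 3′ UTR cases (11.1%). A further 583 coding exon and 298 3′ UTR hotspots lay in genes without a promoter hotspot and are not in these counts.

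**Figure D5:**
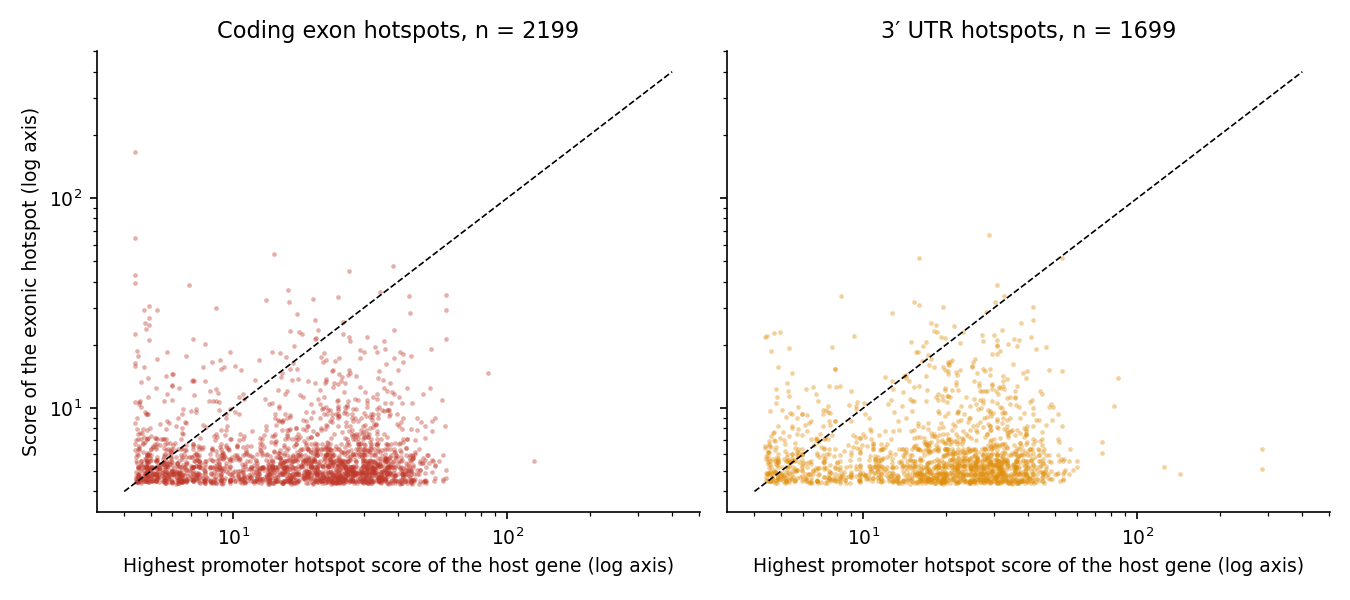
Score of each exonic hotspot against the highest promoter hotspot score of its gene (both log axes), for coding exons (left) and 3′ UTRs (right). Each point is a hotspot whose gene had a promoter hotspot, and the dashed line marks equal scores. Most points lay below the line, and 12.1% of coding exon and 11.1% of 3′ UTR hotspots lay above it.

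Genes induced by EGF had exonic hotspots in several cases. Of 15 early response genes, 7 had a coding exon hotspot and 2 a 3′ UTR hotspot, against 13.1% and 9.66% of all genes. All 15 had a promoter hotspot, as did 75.15% of all genes. The density was 688.8 per Mb of coding sequence (297.4 to 1357, from 8 hotspots in 0.0116 Mb), against 106.0 per Mb of all genes. It was not matched for distance to a TSS or for GC content. The coding exon hotspots of IER2 and SPRY2 lay 1.8 and 2.3 kb from the nearest TSS. Coding sequence of all genes had 160.7 per Mb at 1 to 2 kb and 141.8 per Mb at 2 to 5 kb. IER2, an immediate early gene, had a score of 32, but this hotspot was 4767 bp wide and reached into the 1000 bp beside the TSS. KLF6 (a zinc finger factor) had 13.7 in its 3′ UTR, SPRY2, an inhibitor of receptor signalling, 6.40 in its coding exon, and MYC 6.01 in its 3′ UTR. Of 11 genes of AP-1 factors, 0 had a coding exon hotspot and 2 had one in the 3′ UTR, JUN (8.71) and FOSB (6.65). Among 9 genes of EGF receptors and ligands, AREG (amphiregulin) had 9.0 and ERBB2 had 4.83, both in coding exons. Of 8 glucocorticoid targets, PER1, a clock gene, had a coding exon hotspot of 5.67. KLF9 had one of 28.4 in its 5′ UTR, 1.13 kb from the nearest TSS, which reached into the 1000 bp beside it.

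Genes of the basal epithelial layer held scattered, mostly weak hotspots. Of 14 basement membrane and hemidesmosome genes, 5 had a coding exon hotspot (35.7%, against 13.1% of all genes). Per base there were 69.8 per Mb (25.6 to 152.0), against 106.0 per Mb of all genes, which lies within that interval. They included LAMA3 (8.38) and LAMB1 (5.91), which encode laminin chains of the basement membrane, and COL17A1 (5.40), a collagen of hemidesmosomes. Exons held 30.5% of the LAMA3 hotspot, 61.1% of the LAMB1 hotspot and 68.9% of the COL17A1 hotspot. Of 16 desmosome and keratin genes, 4 had a coding exon hotspot (25%) and 3 a 3′ UTR hotspot (18.8%, against 9.66% of all genes), with PPL (periplakin) at 5.90, PKP3 (plakophilin) at 5.42 and KRT16 at 6.10 in the 3′ UTR. Exons held 28.4% of the PPL hotspot, 36.0% of the PKP3 hotspot and 47.9% of the KRT16 hotspot. The 3′ UTR hotspot of DSG3 (8.43) had 1822 copies of its central 64 bases. Of 15 epithelial transcription factor genes, 3 had a coding exon and 2 a 3′ UTR hotspot. SOX9 had 9.37, KLF4 and KLF5 had 5.99 each, and RUNX1 had 6.78 in its 3′ UTR at 95.1 kb from the nearest TSS. ZEB1 (4.48) and ZEB2 (5.18), repressors of epithelial genes, had weak coding exon hotspots. In the TGF-beta pathway, 4 of 14 genes had a coding exon hotspot. SMAD6 had 9.33 in a hotspot that reached into the 1000 bp beside the TSS, and SMAD3 had 6.65. In addition, the 3′ UTR hotspot of SMAD2 (12) had 105 copies of its centre. Of 8 neuronal genes, 2 had a coding exon hotspot (113.2 per Mb, 13.7 to 409.0) and 0 a 3′ UTR hotspot.

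Large genes and gene families differed in how often they were hit. Of all protein-coding genes, 13.1% had a coding exon hotspot and 9.66% a 3′ UTR hotspot, at 106.0 and 57.3 per Mb. Of 14 genes of actin cytoskeleton and giant scaffolds, 8 had a coding exon hotspot (98.7 per Mb, 55.2 to 162.8), among them SYNE1 (7.49), MYH9 (7.02) and MACF1 (6.36). Per base this did not differ from the 106.0 per Mb of all genes. Exons held 63.9% of the SYNE1 hotspot, 34.2% of the MYH9 hotspot and 100% of the MACF1 hotspot. Of 16 mucin genes, 8 had a coding exon hotspot and 0 a 3′ UTR hotspot, with 33 hotspots at 212.2 per Mb (146.0 to 298.0). MUC16, MUC12 and MUC5B held 9, 8 and 5 of the 33, and the interval treats such clustered hotspots as independent. The central 64 bases were repeated in the genome for 6 of the 8 in MUC12 and 3 of the 5 in MUC5B. Of 478 numbered zinc finger genes, 66 had a coding exon (13.8%) and 57 a 3′ UTR hotspot (11.9%). The highest scores were in ZNF551 (21.5 in the 3′ UTR), ZNF589 and ZNF771 (20.8). The coding share was close to that of all genes, and per base there were 92.5 per Mb (73.4 to 115.2). In 3′ UTRs there were 43.2 per Mb (33.0 to 55.5), below the 57.3 per Mb of all genes. Of 327 solute carrier genes, 53 had a coding exon (16.2%) and 36 a 3′ UTR hotspot (11%). Of 39 collagen genes, 13 had a coding exon hotspot (33.3%). Per base there were 90.7 per Mb (50.8 to 149.6), an interval that included the 106.0 per Mb of all genes. Of 385 olfactory receptor genes, which are expressed mainly in the nose, 14 had a coding exon hotspot (3.64%) and 6 a 3′ UTR hotspot, led by OR10G4 with 19.4 and 2 copies of its centre. Their coding density was 119.7 per Mb (65.4 to 200.8), which did not differ from that of all genes. Their 3′ UTR density was 17.7 per Mb (7.66 to 34.96), below the 57.3 per Mb of all genes. Of 39 HOX genes, 4 had a coding exon hotspot (10.3%), close to the share of all genes. Among them were HOXB6 (7.96), HOXA6 (6.98) and HOXB2 (6.13), which had no promoter hotspot. Of 12 housekeeping genes, 2 (16.7%) had a coding exon hotspot, GUSB (5.35) and GAPDH (5.21).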

How the data were processed

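ATAC-seq libraries of 5 MCF10A replicates were aligned by the authors with Bowtie2 to hg38, merged and cleared of duplicates, and hotspots were called with Hotspot at a false discovery rate of 0.01. The deposited list holds a score per hotspot as the authors' run wrote it. The settings of the Hotspot run name no shift of Tn5 cut sites. Depth is unknown, because no read counts were used.

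Exons and TSSs were those of protein-coding transcripts in GENCODE release 44. Motifs were 16 consensus sequences, searched on both strands of the central 120 bp, since the list holds no summits. Copies are exact matches of the central 64 bases in hg38. Shares have Wilson intervals, their differences Newcombe intervals, medians order-statistic intervals and densities Poisson intervals, all at 95%. No p-value was computed. The scripts were tested on simulated data.

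The hotspots and the 20 gene lists were chosen with earlier results of these data known. The genes named host the 10 highest hotspots of each exon kind, the most hotspots, the highest hotspot in each list (up to 4 genes) or the 5 highest with an AP-1 or CTCF site. Some genes that this rule names are not reported here. Alternatives were a distance of 2000 bp or from every TSS, scores above the median, canonical transcripts, the share of the hotspot in exons, precedence of the 3′ UTR and wider motif windows. Chosen after seeing the data were hotspots clear of the TSS, with a unique centre, promoter hotspots that are not among the 4909, and local GC classes. Tables were made in Python 3.11.15 with pandas 2.3.3, numpy 2.4.6 and scipy 1.17.1, and plots with matplotlib 3.10.9.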

Additional observations from a re-analysis of the deposited data

How the results depend on the processing

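Of 107 alternative values for 13 results, 83 stayed within the counting error of the main value (for numbers of hotspots, within 1.5 times), 23 moved further and 1 changed direction. The change of direction was the density in coding exons over introns, 1.90 in all bases and 0.830 with local GC classes weighted as in introns, where 3′ UTRs had 0.806. With centres found once, these ratios were 2.17 and 1.15, since a larger share of intronic than of exonic hotspots drops out. Only the hotspots were filtered and the bases were not, so these ratios are not densities in unique sequence. Both settings were chosen after seeing the data. Among hotspots with a score above the median there were 1832 exonic ones, 985 in coding exons and 778 in 3′ UTRs, with median scores of 7.26 and 7.50, densities over introns of 1.49 and 0.885, AP-1 shares of 4.67% and 9.38%, and a CTCF share of 1.12% in coding exons. In the central 300 bp the AP-1 shares were 7.73% and 11.6% and the CTCF shares 1.55% and 2.85% in coding exons and 3′ UTRs. In whole hotspots they were 8.38% and 12.8% for AP-1 and 1.91% and 3.10% for CTCF. Wider windows hold more letters. The share near a non-coding TSS was 17.2% at 2000 bp from protein-coding TSSs and 17.7% with at least 50% of the hotspot in exons, against 19%. The cause was not tested. No paired analysis was possible because the replicates were pooled into a single list, which also allowed no replicate to be left out.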
